A study of Mus musculus with 16 samples.

Results

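The mouse orthologs of human chromosome 21 genes are spread over 3 mouse chromosomes, and the Dp16 mouse carries an extra copy only of those in a segment of chromosome 16. Described here are 37 orthologs that lie outside it, 28 on chromosome 10 (76207222 to 78464975, a span of 2.26 Mb) and 9 on chromosome 17 (31255019 to 32062865, 0.808 Mb, GRCm38), which stay at 2 copies in Dp16. They were chosen by gene symbol from a list of such orthologs, among 55385 genes in the count table, and 34 of them were among the 17132 genes with enough counts to be tested. Ftcd and Spatc1l had 3 counts each and Hsf2bp had 65 counts over all libraries, and these 3 were not tested. The duplicated segment, from 75540514 to 97962622 on chromosome 16, held 105 tested genes and served as the comparison.

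RNA was measured by polyadenylated RNA sequencing of hippocampus from 9-month-old mice, with 4 libraries in each of 4 groups and 2 females and 2 males per group. The groups were wild-type C57BL/6J mice (WT), Dp16 mice with the segmental duplication, 5xFAD mice, and 5xFAD-Dp16 mice with both alleles; the labels name no treatment. 5xFAD mice carry transgenes that model familial Alzheimer's disease, mutant human APP among them, driven by the neuronal Thy1 promoter, so that human amyloid precursor is made mainly in neurons. The libraries are named below by group and by the number in their labels, for example WT 2. Whole-table totals ran from 16922937 to 25308693 counts. The labels give 4 mice per group but do not describe litters or dissection days. The p-values set the differences between groups against the spread between these libraries.

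A segmental trisomy raises the gene dose within the extra segment, and genes elsewhere keep their own dose but may respond to products of the segment. Genes that are trisomic in people with Down syndrome but disomic in this model therefore serve as a dose control within the same tissue. In 5xFAD brain, amyloid plaques form early and are surrounded by microglia and astrocytes, which turn on genes of adhesion, lysosomal proteolysis and antigen presentation. Several of the orthologs belong to such cells: Itgb2 encodes the common beta chain of the leukocyte integrins, and S100b a calcium-binding protein of astrocytes and oligodendrocytes.

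RefSeq promoters (GRCm38.p6, 250 bases before to 50 after the annotated start) were found for 28 of the 37 genes. Those of 3 genes that were higher with the 5xFAD transgenes are shown, since these genes lie on 1 chromosome and were read for shared letters; they are written 5′ to 3′ on the gene's strand. Capitals mark every match on either strand of CCAAT in S100b and of GGGCGG in Lrrc3 and Pttg1ip, motifs chosen for display after the matches were seen. The S100b window (chr10:76253586-76253885, plus strand) has 53.7% GC, 3 CpG and 2 matches of CCAAT. The Lrrc3 window (chr10:77902487-77902786, minus strand) has 65.7% GC, 14 CpG and 3 matches of GGGCGG. The Pttg1ip window (chr10:77581405-77581704, plus strand) has 63.3% GC, 20 CpG and 2 matches of GGGCGG.
S100b: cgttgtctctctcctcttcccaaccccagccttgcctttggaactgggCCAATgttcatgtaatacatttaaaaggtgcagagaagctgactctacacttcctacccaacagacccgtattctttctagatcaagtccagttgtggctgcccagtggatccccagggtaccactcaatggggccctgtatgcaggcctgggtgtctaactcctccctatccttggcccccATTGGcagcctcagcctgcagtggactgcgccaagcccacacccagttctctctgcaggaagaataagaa
Lrrc3: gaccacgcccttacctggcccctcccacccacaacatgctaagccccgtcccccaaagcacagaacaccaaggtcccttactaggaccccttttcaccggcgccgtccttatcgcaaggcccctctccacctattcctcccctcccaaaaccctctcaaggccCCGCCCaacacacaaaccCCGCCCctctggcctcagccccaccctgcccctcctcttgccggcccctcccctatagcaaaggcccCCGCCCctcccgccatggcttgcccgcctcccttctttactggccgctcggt
Pttg1ip: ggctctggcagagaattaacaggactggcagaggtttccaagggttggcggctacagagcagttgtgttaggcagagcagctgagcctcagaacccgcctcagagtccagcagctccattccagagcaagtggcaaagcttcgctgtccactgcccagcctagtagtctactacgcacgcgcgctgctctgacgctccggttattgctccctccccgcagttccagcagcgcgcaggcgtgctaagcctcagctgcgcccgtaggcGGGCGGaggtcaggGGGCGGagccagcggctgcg

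In all, 9 motifs were searched on both strands. GGGCGG, the SP1 box, was in the promoters of 19 of the 28 genes and in 35.7% of all 32851 promoters of this length. CCAAT was in 9 of 28 genes (37.4% of all promoters) and GAGGAA, the core of the PU.1 motif of myeloid cells, also in 9 of 28 (28.3%), Lrrc3 among them. TGANTCA of AP-1 was in 2 genes (7.81%), CACGTG in 2 (7.15%), TTCNNNGAA of STAT in 1 (8.3%) and the interferon-stimulated response element in 1 (3.44%). TGACGTCA (1.79%) and the NFI palindrome (0.0365%) matched none of these windows. GAGGAA, TTCNNNGAA and the interferon-stimulated element can overlap one another. A gene can have more than 1 promoter, so that the shares by gene and by promoter are not on the same base. By promoter, GGGCGG was in 22 of 35, CCAAT in 10 of 35 and GAGGAA in 10 of 35.

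At the level of RNA per length, the 37 orthologs spanned a wide range. Averaged over the 16 libraries, deposited RPKM (read counts scaled to gene length and library total) were highest for Rrp1, a ribosome assembly factor, at 161, and for S100b at 116. Agpat3, an acyltransferase of phospholipid synthesis, followed at 41.8, Pdxk, which activates vitamin B6, at 34.5, and Adarb1, an RNA-editing deaminase, at 32.2. Slc37a1, a sugar-phosphate transporter, was the lowest of the 34 tested genes at 0.935. Itgb2 (6.58) and Lrrc3 (2.55), the pair with the clearest change below, ranked 17 and 27 of the 37 in that order.

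Some values of whole libraries touch these genes and are given first. Summed CPM (counts scaled to the TMM-adjusted library total) of 12 thalamus markers were between 577 and 908 in 6 libraries and between 205 and 277 in the other 10; the 6 are WT 4, Dp16 14, 5xFAD 6, 5xFAD 13, 5xFAD 15 and 5xFAD-Dp16 1, so 3 of the 4 5xFAD libraries are among them. Choroid plexus markers, 12 genes, summed to between 53.8 (Dp16 12) and 8330 CPM (WT 7). Markers of hippocampal pyramidal and granule neurons were detected in every library, 10 of 10. Their sums were 1070 to 1470 CPM in WT, 993 to 1570 in Dp16, 604 to 1140 in 5xFAD and 949 to 1320 in 5xFAD-Dp16. Of these 10 markers, 0 had a positive change in 5xFAD against WT (median log2 change -0.494) and 2 in 5xFAD-Dp16 against Dp16 (median -0.274). Thy1, whose promoter drives the transgenes, was at 698 to 934 CPM in libraries without and at 1350 to 2820 CPM in libraries with the 5xFAD label. No library went against its duplication label: the median segment gene was 0.465 to 0.557 above the WT mean (log2) in the 8 Dp16 and 5xFAD-Dp16 libraries and -0.0474 to 0.145 in the other 8.

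The first question was whether genes left at 2 copies moved with the duplication. In Dp16 against WT none of the 34 orthologs was called at an adjusted p below 0.05 by the quasi-likelihood test of edgeR, against 0.228% of all 17132 genes, where 36 of the 39 called genes were in the segment. At an unadjusted p below 0.05 there were 2 of 34, or 5.88%, beside 5.7% of all genes, and DESeq2 and limma on RPKM called 0. The median ortholog differed by 0.03 on the log2 scale, or 1.02-fold, whereas the median of the 105 segment genes was 0.56, or 1.48-fold. App, Dyrk1a and Sod1, genes of the segment, show its size. App had means of 2000 CPM in WT and 3180 in Dp16, Dyrk1a 104 and 147, and Sod1 215 and 301.

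The same held on the 5xFAD background. In 5xFAD-Dp16 against 5xFAD 0 of 34 orthologs were called by edgeR (0.304% of all genes), with 5 at an unadjusted p below 0.05 (14.7%, beside 19.1% of all genes) and 0 by DESeq2 or limma. The orthologs' median was -0.04 and that of the segment 0.51 (1.42-fold). Averaged over both transgene states 0 were called by edgeR (0.531% of all genes) and by limma, 4 had an unadjusted p below 0.05 (11.8%, beside 16.9% of all genes), and DESeq2 called 1, Col18a1, as lower. These comparisons share libraries with the transgene comparisons below.

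Since a p above the threshold does not show that a gene stayed level, the interval of each change was set against a 1.5-fold rise, the rise that an added copy gives at proportional output (log2 0.585). In Dp16 against WT the 95% interval lay wholly below it for 32 of 34 orthologs, against 76.6% of all genes and 13 of 105 segment genes. The exceptions were Adarb1, with an upper bound of 0.63, and Rsph1, with 0.59. In 5xFAD-Dp16 against 5xFAD it lay below for 31 of 34 (74.6% of all genes, 17 of 105 segment genes), with Col6a1, Col6a2 and Rsph1 reaching it. Averaged over both transgene states it lay below for 34 of 34 (85.5% of all genes, 16 of 105 segment genes), and the highest upper bound was 0.45 (Rsph1, 1.37-fold). In that average 20 orthologs were within 0.1 of 0 and 29 within 0.2.

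**Figure D1:**
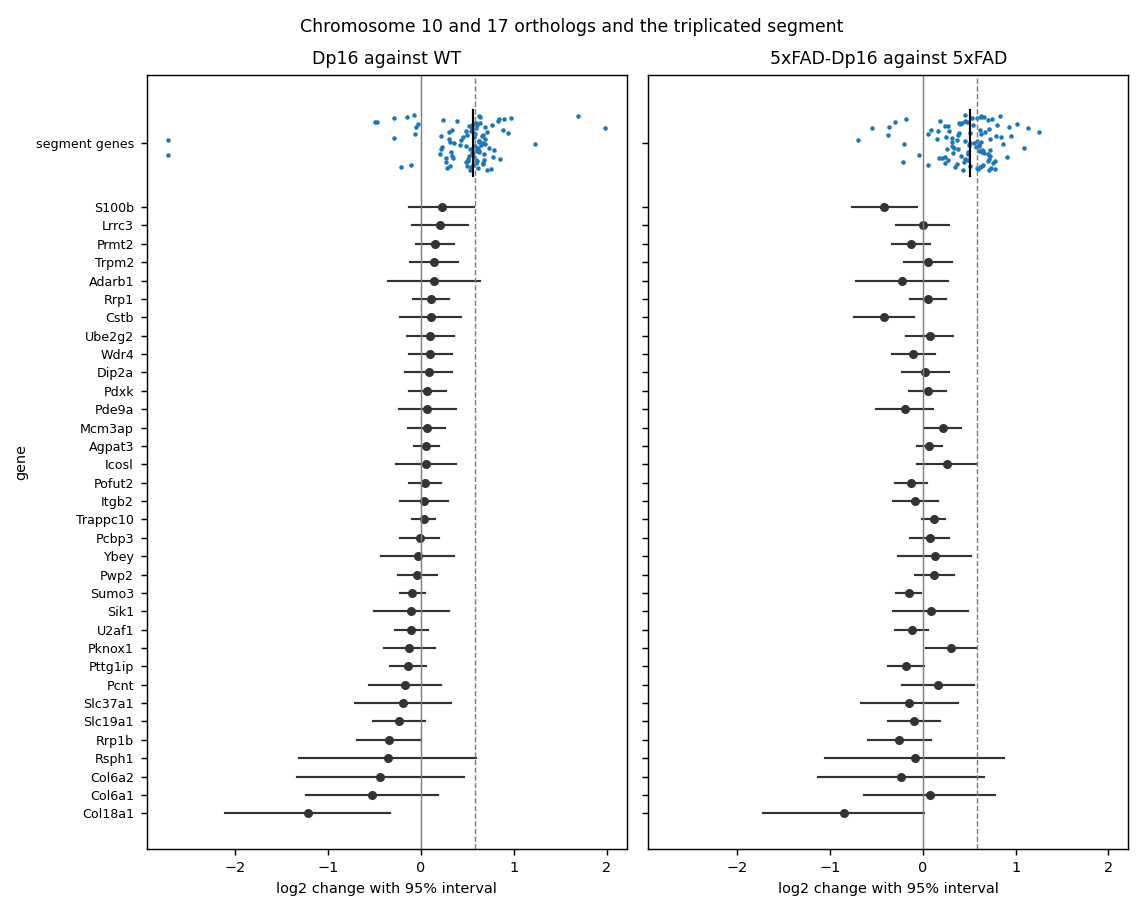
Change of each tested ortholog with the duplication (x axis, log2 change; points with 95% intervals, one row per gene) without and with the 5xFAD transgenes; blue points at the top are the 105 segment genes with their median as a black line, and the dashed line is a 1.5-fold rise. The orthologs centre near 0 with medians of 0.03 and -0.04, while the segment medians of 0.56 and 0.51 lie near the dashed line.

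The lowest value with the duplication was that of Col18a1, which encodes a basement membrane collagen. Its level was 6.29, 13.3, 23.6 and 10.2 CPM in WT 2, 4, 7 and 16, and 4.64, 5.29, 4.05 and 8.55 CPM in Dp16 3, 5, 12 and 14. It was 10.5, 11.7, 26.4 and 13.7 CPM in 5xFAD 6, 10, 13 and 15, and 12.8, 8.66, 7.09 and 5.72 CPM in 5xFAD-Dp16 1, 8, 9 and 11. The groups overlap in both comparisons, and WT 7 and 5xFAD 13 stand above all other libraries. The log2 change was -1.22 ± 0.415 (SE, adjusted p = 0.705) in Dp16 against WT and -0.85 (adjusted p = 0.27) in 5xFAD-Dp16 against 5xFAD, by edgeR. Without the filter on low counts Col18a1 was called lower in both (adjusted p of 4.45e-10 and 3.88e-05, edgeR). Over the alternatives, calls over all genes ran from 28 to 360 in Dp16 against WT, with 39 in the main fit. They ran from 10 to 2045 in 5xFAD-Dp16 against 5xFAD, with 52 in the main fit. The all-gene count of the fit without the filter is not given here. Col18a1 overlaps Slc19a1 on the opposite strand, so that reads of the pair may be shared. WT 7 and 5xFAD 13 were also the libraries with the highest choroid plexus sums, 8330 and 6300 CPM. All 12 choroid plexus markers were lower in Dp16 than in WT (sums of 53.8 to 984 CPM against 469 to 8330), and of the 11 outside the segment 7 had an unadjusted p below 0.05 and 0 were called by edgeR; their part in the Col18a1 values was not tested.

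Rrp1b, a nucleolar protein of chromosome 17, was the 1 ortholog whose libraries did not overlap in Dp16 against WT, where 4.48% of all genes did not overlap. It was at 8.2, 8.07, 7.67 and 7.35 CPM in WT 2, 4, 7 and 16, and at 5.79, 6.57, 5.56 and 6.65 CPM in Dp16 3, 5, 12 and 14. The change of -0.35 ± 0.162 did not pass (adjusted p = 0.871, edgeR). Its gene overlaps Hsf2bp on the other strand, and the strand setting of the counting is not given in the sources used here. Averaged over both transgene states, 4 of 34 intervals did not hold 0, as for 16.9% of all genes; all 4 lay below it, those of Col18a1 (-1.04), Rrp1b (-0.30), Pttg1ip (-0.16) and Sumo3 (-0.12), and none of the 4 passed the test after adjustment. The highest changes with the duplication were those of S100b without the transgenes (0.22, adjusted p = 0.986), of Pknox1 with them (0.31, adjusted p = 0.218) and of Icosl in the average (0.16, adjusted p = 0.461); none passed.

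Of genes near the orthologs, 15 others were tested within the chromosome 10 and 17 stretches, 7 of them protein-coding. This set was drawn up after results were seen. In both duplication comparisons 1 of the 15 was called, Cbs, which encodes cystathionine beta-synthase and lies among the chromosome 17 orthologs. Cbs was at 30.6 ± 2.53 CPM (mean ± SD, n = 4) in WT mice and 18 ± 2.21 CPM in Dp16 mice, and with the transgenes at 29.5 ± 2.39 CPM in 5xFAD and 18.7 ± 0.912 CPM in 5xFAD-Dp16. It fell by 0.77 on the log2 scale in Dp16 against WT (adjusted p = 0.000985) and by 0.66 in 5xFAD-Dp16 against 5xFAD (adjusted p = 0.00236), by edgeR. Cbs also belongs to a list of other chromosome 21 orthologs outside the segment, of which 8 were tested. It was the 1 called in the duplication comparisons. In 5xFAD against WT and 5xFAD-Dp16 against Dp16, 0 of the 8 were called by edgeR. At an unadjusted p below 0.05 there were 1 and 0, beside 24.9% and 11.2% of all genes.

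The second question was which orthologs moved with the 5xFAD transgenes. Itgb2 and Lrrc3 were higher in 5xFAD than in WT and in 5xFAD-Dp16 than in Dp16; S100b and Pttg1ip passed the test in the first of these, and no ortholog was called lower in either with all libraries. Without 5xFAD 10, 7 were called in 5xFAD against WT, Cstb higher and Mcm3ap and Pwp2 lower beside the same 4, and for the averaged transgenes Pwp2 and Rrp1 were called lower. In 5xFAD against WT 4 of 34 orthologs were called, all higher (11.8%, beside 5.31% of all genes called higher and 7.26% called either way). In 5xFAD-Dp16 against Dp16 2 of 34 were called, both higher (5.88%, beside 2.99% called higher and 3.02% either way). Averaged over both duplication states 5 were called, all higher (14.7%, beside 6.61% and 8.6%), the fifth being Rrp1b. The median ortholog changed by 0.05, 0.00326 and 0.02 on the log2 scale in these comparisons, and the median of all genes by 0.03, -0.00729 and 0.01. At an unadjusted p below 0.05 (edgeR) there were 9 of 34 orthologs in 5xFAD against WT (26.5%, beside 24.9% of all genes). In 5xFAD-Dp16 against Dp16 there were 5 (14.7%, beside 11.2% of all genes).

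**Figure D2:**
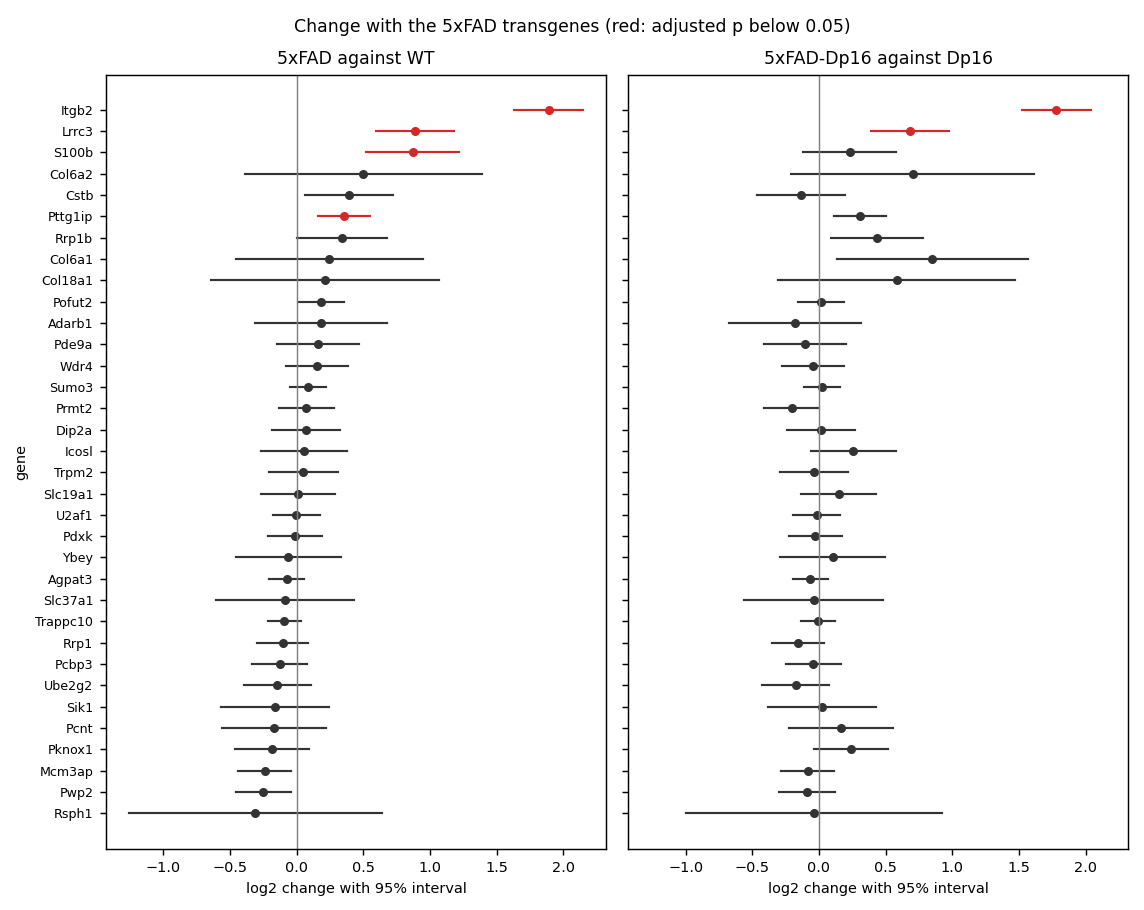
Change of each tested ortholog with the 5xFAD transgenes (x axis, log2 change; points with 95% intervals, one row per gene), left in 5xFAD against WT and right in 5xFAD-Dp16 against Dp16. Red marks an adjusted p below 0.05: Itgb2, Lrrc3, S100b and Pttg1ip on the left, Itgb2 and Lrrc3 on the right.

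Among genes of the cell surface and matrix, Itgb2 (chr10:77530252-77565708, plus strand) showed the largest change. It was at 9.37, 7.06, 8.66 and 8.24 CPM in WT 2, 4, 7 and 16, and at 9.12, 9.46, 8.37 and 7.03 CPM in Dp16 3, 5, 12 and 14. It was at 37.7, 29.2, 35.8 and 22.4 CPM in 5xFAD 6, 10, 13 and 15, and at 35.8, 27.6, 24.3 and 29.9 CPM in 5xFAD-Dp16 1, 8, 9 and 11. All 8 libraries with transgenes were above all 8 without, as for 458 of 17132 genes. The log2 change was 1.89 ± 0.123 (3.72-fold, adjusted p = 1.35e-07) in 5xFAD against WT and 1.78 ± 0.122 (3.44-fold, adjusted p = 3.7e-07) in 5xFAD-Dp16 against Dp16, by edgeR.

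Microglia are the brain cells that carry leukocyte integrins, and their markers moved with Itgb2. All 12 microglia markers were called higher in both transgene comparisons (5.31% and 2.99% of all genes), with median log2 changes of 1.68 and 1.31. Their sums were 462 to 562 CPM in WT mice and 481 to 575 in Dp16 mice, 1180 to 2190 in 5xFAD mice and 1260 to 1480 in 5xFAD-Dp16, and none of the 12 was at 0. In bulk tissue more cells of a type and more RNA per cell cannot be told apart, and the part of cell number in the Itgb2 values was not tested.

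Itgb2 protein pairs with alpha chains and binds intercellular adhesion molecules. Of 11 tested partners and related integrin genes, 7 were called higher in 5xFAD against WT and 7 in 5xFAD-Dp16 against Dp16, and none lower. Of all genes, 5.31% and 2.99% were called higher in these comparisons. Itgax, the alpha chain CD11c, was at 0.247 to 0.612 CPM in WT and 12.6 to 38.8 CPM in 5xFAD. It was at 0.247 to 1.02 CPM in Dp16 and 14.8 to 28.2 CPM in 5xFAD-Dp16. Fermt3, the kindlin that activates integrins in blood cells, rose 2.9-fold and 2.14-fold in the same order. Itgam, the alpha chain CD11b, rose 2.25-fold and 2.14-fold.

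Lrrc3 (chr10:77897575-77902536, minus strand), which encodes a small leucine-rich repeat membrane protein, was the other ortholog called in both comparisons. Its level was 7.89, 8.16, 7.44 and 6.22 CPM in WT 2, 4, 7 and 16, and 8.96, 7.16, 8.06 and 9.82 CPM in Dp16 3, 5, 12 and 14. It was 15.7, 13.2, 14.4 and 11.9 CPM in 5xFAD 6, 10, 13 and 15, and 15.5, 12.3, 11.5 and 15.8 CPM in 5xFAD-Dp16 1, 8, 9 and 11. The 8 libraries with transgenes were all above the 8 without, as for 458 of 17132 genes. By edgeR the log2 change was 0.89 ± 0.139 (1.85-fold, adjusted p = 0.000653) and 0.68 ± 0.138 (1.61-fold, adjusted p = 0.00797).

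Icosl, the ligand of the T-cell costimulator ICOS, lies in the same stretch and did not pass in any of the comparisons. It was at 14.3, 13.3, 16.6 and 12 CPM in WT 2, 4, 7 and 16, and at 15.9, 13.2, 17.3 and 11.6 CPM in Dp16 3, 5, 12 and 14. It was at 14.8, 14.2, 18.2 and 11.2 CPM in 5xFAD 6, 10, 13 and 15, and at 14.1, 16, 17.7 and 21.7 CPM in 5xFAD-Dp16 1, 8, 9 and 11. The 4 groups overlap. Of 4 tested genes of the related B7 ligands and receptors, 2 were called higher in both transgene comparisons (5.31% and 2.99% of all genes). They were Cd86 (4.08-fold and 2.65-fold) and Cd274, which encodes PD-L1 (2.59-fold and 2.44-fold).

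The collagen genes Col6a1 and Col6a2, subunits of the same trimer, were higher by 0.24 and 0.50 in 5xFAD against WT and by 0.85 and 0.70 in 5xFAD-Dp16 against Dp16, and none of these passed. Without the filter on low counts Col6a1 (adjusted p = 0.000157, edgeR), Col6a2 and Col18a1 were called higher in 5xFAD-Dp16 against Dp16 and in the average, and Col6a1 was called higher in the average without the 6 libraries of high thalamus markers. Over the alternatives, 384 to 890 of all genes were called in 5xFAD-Dp16 against Dp16, with 518 in the main fit. Col6a1 ranged from 4.87 to 12 CPM in WT mice and 5.26 to 6.52 in Dp16 mice, 8.68 to 11.3 in 5xFAD mice and 6.52 to 20.4 in 5xFAD-Dp16. Col6a2 ranged from 4.25 to 10.7 CPM in WT and 3.63 to 7.12 in Dp16, and from 8.39 to 11.5 in 5xFAD and 4.35 to 19.7 in 5xFAD-Dp16. Both were highest in 5xFAD-Dp16 1, Col6a1 at 20.4 and Col6a2 at 19.7 CPM. That library also had the highest sum of meningeal fibroblast markers, 369 CPM against 99.6 to 306 in the rest. Its sums of mural markers (541 CPM, against 295 to 478) and endothelial markers (349 CPM, against 226 to 322) were the highest as well. The part of any of these in the Col6a1 and Col6a2 values was not tested. Of 17 other collagen and basement membrane genes, 0 were called by edgeR in either transgene comparison. At an unadjusted p below 0.05 there were 2 and 1, beside 24.9% and 11.2% of all genes.

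Among genes of calcium and cyclic nucleotide signalling, S100b (chr10:76253853-76261159, plus strand) changed in 5xFAD mice. It was at 128, 139, 112 and 128 CPM in WT 2, 4, 7 and 16, and at 141, 134, 148 and 169 CPM in Dp16 3, 5, 12 and 14. It was at 306, 160, 191 and 271 CPM in 5xFAD 6, 10, 13 and 15, and at 197, 153, 165 and 181 CPM in 5xFAD-Dp16 1, 8, 9 and 11. All 5xFAD libraries were above all WT libraries, where 12.4% of all genes did not overlap in either direction. 5xFAD-Dp16 overlapped with Dp16. The log2 change was 0.87 ± 0.165 (1.83-fold, adjusted p = 0.00427) in 5xFAD against WT and 0.23 ± 0.164 (1.17-fold, adjusted p = 0.672) in 5xFAD-Dp16 against Dp16, by edgeR. The difference between the 2 changes was -0.64 ± 0.232, with an unadjusted p of 0.0145 and an adjusted p of 0.718 (edgeR), so the changes were not shown to differ. Without the filter on low counts the adjusted p was 0.00283 (edgeR). Over the alternatives, 0 to 290 of all genes were called for this difference, with 0 in the main fit.

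S100b was highest in 5xFAD 6 and 5xFAD 15, which also had the highest oligodendrocyte marker sums, 9990 and 12000 CPM against 4450 to 7860 in the other 14 libraries. Astrocyte marker sums were 6720 to 8890 CPM in WT mice and 6930 to 7750 in Dp16 mice, 7230 to 10500 in 5xFAD mice and 9090 to 10100 in 5xFAD-Dp16. Both 5xFAD libraries are also among the 6 of high thalamus markers. Without those 6, which leaves 1 5xFAD library, the change was 0.41 in 5xFAD against WT and 0.26 in 5xFAD-Dp16 against Dp16. The difference between these changes was -0.15. Averaged over both duplication states, the S100b change was 0.55 with all libraries (adjusted p = 0.00618, edgeR) and 0.33 without the 6. S100b and Dip2a overlap on opposite strands, so that reads of the pair may be shared.

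Of 10 other tested S100 genes and their receptor, 7 were called higher in 5xFAD against WT and 2 in 5xFAD-Dp16 against Dp16. In these comparisons 5.31% and 2.99% of all genes were called higher. S100a6 rose 2.56-fold in the first and 1.87-fold in the second. S100a1 rose 1.61-fold and S100a13 1.64-fold in the first; their means were 55.4 and 70.3 CPM (S100a1) and 16 and 20.3 CPM (S100a13) in Dp16 and 5xFAD-Dp16, where neither was called.

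The other signalling orthologs were Pde9a, a phosphodiesterase of cyclic GMP, Trpm2, a calcium channel opened by oxidative stress, and Sik1, a salt-inducible kinase, and none of them passed. Pde9a was at 9.93, 14.8, 13.7 and 14.4 CPM in WT 2, 4, 7 and 16, and at 16.6, 12.8, 12.5 and 13.7 CPM in Dp16 3, 5, 12 and 14. It was at 14.9, 16.2, 13.7 and 14.3 CPM in 5xFAD 6, 10, 13 and 15, and at 16.1, 11.5, 11.2 and 12.7 CPM in 5xFAD-Dp16 1, 8, 9 and 11. The 4 groups of Pde9a overlap. Trpm2 ranged from 29.2 to 45.7 CPM and Sik1 from 15.7 to 30.7 CPM over all libraries. Of 14 phosphodiesterase genes 1, Pde3b, was called higher in both transgene comparisons (5.31% and 2.99% of all genes), at 1.7-fold in each. Of 5 tested TRPM channels 1, Trpm1, was called higher in 5xFAD against WT, at 0 to 0.141 CPM in WT and 0.703 to 1.75 CPM in 5xFAD.

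In transport and metabolism, Agpat3 and Pdxk were the most abundant. Agpat3 was at 294, 280, 279 and 281 CPM in WT 2, 4, 7 and 16, and at 295, 297, 304 and 286 CPM in Dp16 3, 5, 12 and 14. It was at 259, 277, 271 and 269 CPM in 5xFAD 6, 10, 13 and 15, and at 283, 278, 297 and 273 CPM in 5xFAD-Dp16 1, 8, 9 and 11. All 5xFAD libraries were below all WT libraries, where 12.4% of all genes did not overlap in either direction, and the change of -0.08 ± 0.0624 did not pass (adjusted p = 0.48, edgeR). Pdxk was at 175, 189, 166 and 165 CPM in WT 2, 4, 7 and 16, and at 180, 187, 173 and 188 CPM in Dp16 3, 5, 12 and 14. It was at 140, 186, 182 and 181 CPM in 5xFAD 6, 10, 13 and 15, and at 192, 160, 172 and 191 CPM in 5xFAD-Dp16 1, 8, 9 and 11. 5xFAD 6 is the lowest library of Pdxk, and the groups overlap.

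The folate carrier Slc19a1 ranged from 10.9 to 16.7 CPM and Slc37a1 from 2.37 to 5.17 CPM over all libraries, with no call. Lpcat2, 1 of 11 tested acyltransferases related to Agpat3, was called higher in both transgene comparisons (1.62-fold and 1.7-fold). In these 2 comparisons 5.31% and 2.99% of all genes were called higher. Of 16 genes of folate and vitamin B6 metabolism, Aldh1l2, a mitochondrial folate enzyme, was called higher in both (2.01-fold and 2.08-fold), and Folr2, a folate receptor of macrophages, in 5xFAD-Dp16 against Dp16 (3.95-fold).

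No ortholog of protein modification and turnover was called with all libraries. Prmt2, an arginine methyltransferase, was at 56.2, 72.6, 65 and 62.5 CPM in WT 2, 4, 7 and 16, and at 74.2, 73.7, 70.5 and 65.6 CPM in Dp16 3, 5, 12 and 14. It was at 69.7, 73.8, 52 and 74.3 CPM in 5xFAD 6, 10, 13 and 15, and at 61.5, 64.6, 62 and 58.8 CPM in 5xFAD-Dp16 1, 8, 9 and 11. Prmt2 had the lowest change of the 34 in 5xFAD-Dp16 against Dp16, at -0.20 ± 0.0964 (adjusted p = 0.444, edgeR), with all 5xFAD-Dp16 libraries below all Dp16 libraries, as for 10% of all genes in either direction. Ube2g2, a ubiquitin-conjugating enzyme of degradation at the endoplasmic reticulum, was at 64.2, 62.1, 64.5 and 53.2 CPM in WT 2, 4, 7 and 16, and at 73.9, 64.4, 70.4 and 53 CPM in Dp16 3, 5, 12 and 14. It was at 53.3, 55.8, 63 and 48.4 CPM in 5xFAD 6, 10, 13 and 15, and at 49, 60.2, 66.9 and 55.5 CPM in 5xFAD-Dp16 1, 8, 9 and 11. The Ube2g2 groups overlap.

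Cstb encodes cystatin B, an inhibitor of lysosomal cathepsins. It was at 11.9 to 15.1 CPM in WT mice and 13 to 16.6 in Dp16 mice, 12.3 to 21.7 in 5xFAD mice and 11.3 to 14.5 in 5xFAD-Dp16. Its change was 0.39 ± 0.154 in 5xFAD against WT (adjusted p = 0.13) and -0.13 in 5xFAD-Dp16 against Dp16 (adjusted p = 0.402), by edgeR. The cathepsins and other cystatins moved in both comparisons. Of 8 tested, 7 were called higher in 5xFAD against WT and 6 in 5xFAD-Dp16 against Dp16. Over all genes the shares called higher were 5.31% and 2.99%. Ctss rose 4.07-fold and 3.28-fold, and Ctsh 2.97-fold and 2.13-fold. Cst7, a cystatin of activated microglia, was at 0.126 to 0.308 CPM in WT and 34.6 to 130 CPM in 5xFAD, and at 0.16 to 2.09 CPM in Dp16 and 49 to 68.2 CPM in 5xFAD-Dp16.

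Sumo3, a ubiquitin-like modifier, ranged from 82.8 to 103 CPM and Pofut2, which adds fucose to secreted proteins, from 25.3 to 33.9 CPM, with no call. Of 17 genes of SUMO and ubiquitin conjugation, Pias1, a SUMO ligase, was called lower in 5xFAD against WT (0.833-fold, adjusted p = 0.0499, edgeR). Its means were 58.5 CPM in WT and 48.7 in 5xFAD. In that comparison 7.26% of all genes were called either way.

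Among the 9 orthologs of RNA and ribosome metabolism, Rrp1b was called with all libraries in the average of both duplication states alone. Its level was 6.54, 9.92, 11.9 and 11.4 CPM in 5xFAD 6, 10, 13 and 15, and 8.35, 7.9, 9.7 and 7.32 CPM in 5xFAD-Dp16 1, 8, 9 and 11. All 5xFAD-Dp16 libraries were above all Dp16 libraries, as 10% of all genes did not overlap there in either direction. 5xFAD 6 was below all WT libraries. The averaged change was 0.39 ± 0.113 (1.31-fold, adjusted p = 0.0438), with 0.34 (adjusted p = 0.199) in 5xFAD against WT and 0.44 (adjusted p = 0.258) in 5xFAD-Dp16 against Dp16, by edgeR. The averaged call was lost when any of 12 of the 16 libraries was left out, and was kept without Dp16 14, 5xFAD 6, 5xFAD 10 or 5xFAD-Dp16 8. The changes ran from 0.32 to 0.47. With RLE scaling the averaged call was lost as well. It was also lost without the 6 libraries of high thalamus markers, which leaves 1 5xFAD library, at a change of 0.41. Without 5xFAD 6, Rrp1b was called higher in 5xFAD against WT (adjusted p = 0.0472, edgeR).

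Adarb1 encodes the editing enzyme ADAR2 and is high in thalamus. It was at 184, 273, 178 and 178 CPM in WT 2, 4, 7 and 16, and at 183, 189, 191 and 332 CPM in Dp16 3, 5, 12 and 14. It was at 261, 163, 253 and 243 CPM in 5xFAD 6, 10, 13 and 15, and at 266, 168, 180 and 173 CPM in 5xFAD-Dp16 1, 8, 9 and 11. Each group has at least 1 high library, and the 6 high libraries (243 to 332 CPM, against 163 to 191 in the other 10) are the 6 of high thalamus markers. Adarb1 was the 1 of 34 orthologs whose values did not overlap between these sets, where 3.53% of all genes did not. Its change of 0.18 ± 0.231 in 5xFAD against WT did not pass (adjusted p = 0.669, edgeR), and was -0.13 without the 6 libraries.

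Rrp1 was at 345, 318, 297 and 327 CPM in WT 2, 4, 7 and 16, and at 354, 361, 360 and 309 CPM in Dp16 3, 5, 12 and 14. It was at 277, 352, 284 and 284 CPM in 5xFAD 6, 10, 13 and 15, and at 303, 302, 340 and 297 CPM in 5xFAD-Dp16 1, 8, 9 and 11. 3 of the 4 5xFAD libraries were below all WT libraries, and the fourth was above them. No comparison of Rrp1 passed with all libraries. Without 5xFAD 10 it was called lower for the averaged transgenes. The remaining genes of this group had no call with all libraries. Among them were the splicing factor U2af1 (30.4 to 40.1 CPM), the RNA-binding Pcbp3 (47.9 to 65.5) and the ribosome factor Pwp2 (21.1 to 30.4). The others were the tRNA methylation subunit Wdr4 (12.9 to 19.2), the ribonuclease Ybey (4.81 to 8.74) and the mRNA export factor Mcm3ap (37.8 to 57). Without 5xFAD 10, Pwp2 and Mcm3ap were called lower in 5xFAD against WT. Of 19 other ribosome biogenesis genes and 10 of splice site recognition and editing, 0 were called by edgeR in either transgene comparison. At an unadjusted p below 0.05 there were 4 and 2 of the 19, and 1 and 1 of the 10, beside 24.9% and 11.2% of all genes.

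In the last group, Pttg1ip (chr10:77581720-77598732, plus strand), which encodes a binding partner of securin, was called in 5xFAD mice. It was at 49.6, 51.7, 60.9 and 44.7 CPM in WT 2, 4, 7 and 16, and at 48.5, 41.7, 48.1 and 49 CPM in Dp16 3, 5, 12 and 14. It was at 73.4, 59.4, 72.1 and 60.1 CPM in 5xFAD 6, 10, 13 and 15, and at 60.3, 59.3, 55.3 and 57.9 CPM in 5xFAD-Dp16 1, 8, 9 and 11. WT 7 overlaps with 5xFAD. All 5xFAD-Dp16 libraries were above all Dp16 libraries, where 10% of all genes did not overlap in either direction. The change was 0.36 ± 0.0922 (1.28-fold, adjusted p = 0.0285) and 0.31 ± 0.0924 (1.24-fold, adjusted p = 0.108), by edgeR. The first call was lost when WT 2, WT 4, WT 16, 5xFAD 6 or 5xFAD 13 was left out, with changes of 0.30 to 0.43 over the libraries left out in turn. 5xFAD 6 and 5xFAD 13 are among the 6 libraries of high thalamus markers; without those 6 the change was 0.24 (adjusted p = 0.58, edgeR), and the averaged call was lost too (0.30, adjusted p = 0.153). With only the compared groups fitted, the call was lost in 5xFAD against WT and made in 5xFAD-Dp16 against Dp16 (adjusted p = 0.049, edgeR).

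Trappc10, a subunit of a vesicle tethering complex, was at 109, 101, 111 and 103 CPM in WT 2, 4, 7 and 16, and at 112, 110, 107 and 105 CPM in Dp16 3, 5, 12 and 14. It was at 97.5, 104, 97.9 and 98.3 CPM in 5xFAD 6, 10, 13 and 15, and at 109, 111, 107 and 104 CPM in 5xFAD-Dp16 1, 8, 9 and 11. 5xFAD 10 overlaps with WT. All 5xFAD-Dp16 libraries were above all 5xFAD libraries before rounding, as for 592 of 17132 genes. That change of 0.12 ± 0.0592 did not pass (adjusted p = 0.297, edgeR), and no other comparison of Trappc10 passed. Pcnt, a centrosome scaffold, ranged from 25.9 to 50.9 CPM, Dip2a from 60.4 to 95 CPM and the homeobox gene Pknox1 from 8.61 to 13.8 CPM, with no call.

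Rsph1, a radial spoke protein of motile cilia, had the lowest change in 5xFAD against WT, at -0.31 ± 0.441 (adjusted p = 0.704, edgeR). It ranged from 5.55 to 15.4 CPM in WT mice and 3.09 to 9.62 in Dp16 mice, 3.56 to 13.1 in 5xFAD mice and 3.38 to 11 in 5xFAD-Dp16. Its highest libraries, WT 7, 5xFAD 13 and 5xFAD-Dp16 8, were also those of the highest ependymal marker sums, 73.2, 64.1 and 68 CPM, against 22.1 to 64 in the rest. Without WT 7 the change was 0.0164. Of 10 radial spoke and cilia genes, 0 were called by edgeR in either transgene comparison and 0 had an unadjusted p below 0.05. Of 16 genes of the TRAPP complex and centrosome 0 were called, with 1 and 5 at an unadjusted p below 0.05. Of 9 salt-inducible kinases and CREB cofactors 0 were called, with 1 and 0. Over all genes the shares at that threshold were 24.9% and 11.2%.

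**Figure D3:**
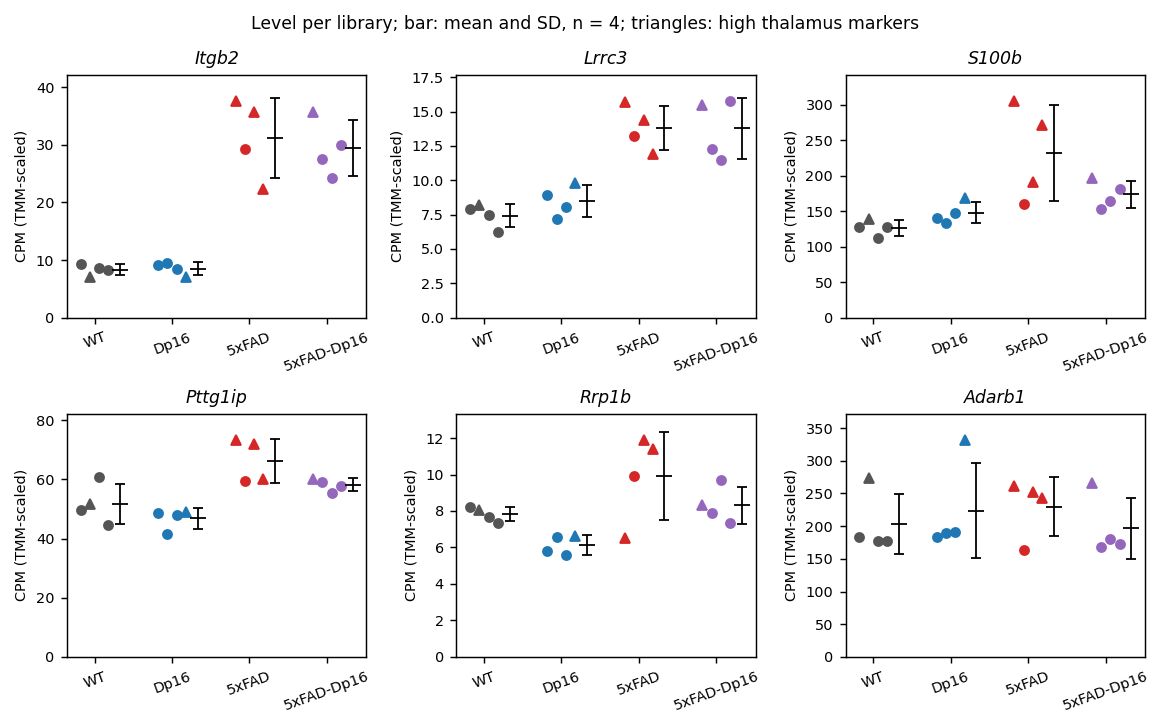
Level of 6 orthologs in each library (y axis, TMM-scaled CPM; points are libraries, triangles the 6 of high thalamus markers, bars the mean and SD of 4 libraries). Itgb2 and Lrrc3 are higher in all 8 libraries with transgenes, and Adarb1 is highest in the triangles, at 243 to 332 CPM.

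Over the 34 orthologs the transgene changes did not differ with the duplication beyond the test's threshold. For the interaction of duplication and transgenes 0 of 34 orthologs and 0 of 17132 genes (0%) were called by edgeR; at an unadjusted p below 0.05 there were 3 orthologs (8.82%) and 1114 genes (6.5%), and DESeq2 and limma called 0 orthologs. Those orthologs were S100b, Cstb (-0.53) and Pknox1 (0.43), each with an adjusted p of 0.718 in the edgeR test. The highest interaction value was that of Col6a1 (0.61, adjusted p = 0.76, edgeR) and the lowest that of S100b. The Cstb value was 0.12 without the 6 libraries of high thalamus markers. For Itgb2 and Lrrc3 the changes in the 2 backgrounds were 1.89 and 1.78, and 0.89 and 0.68.

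**Figure D4:**
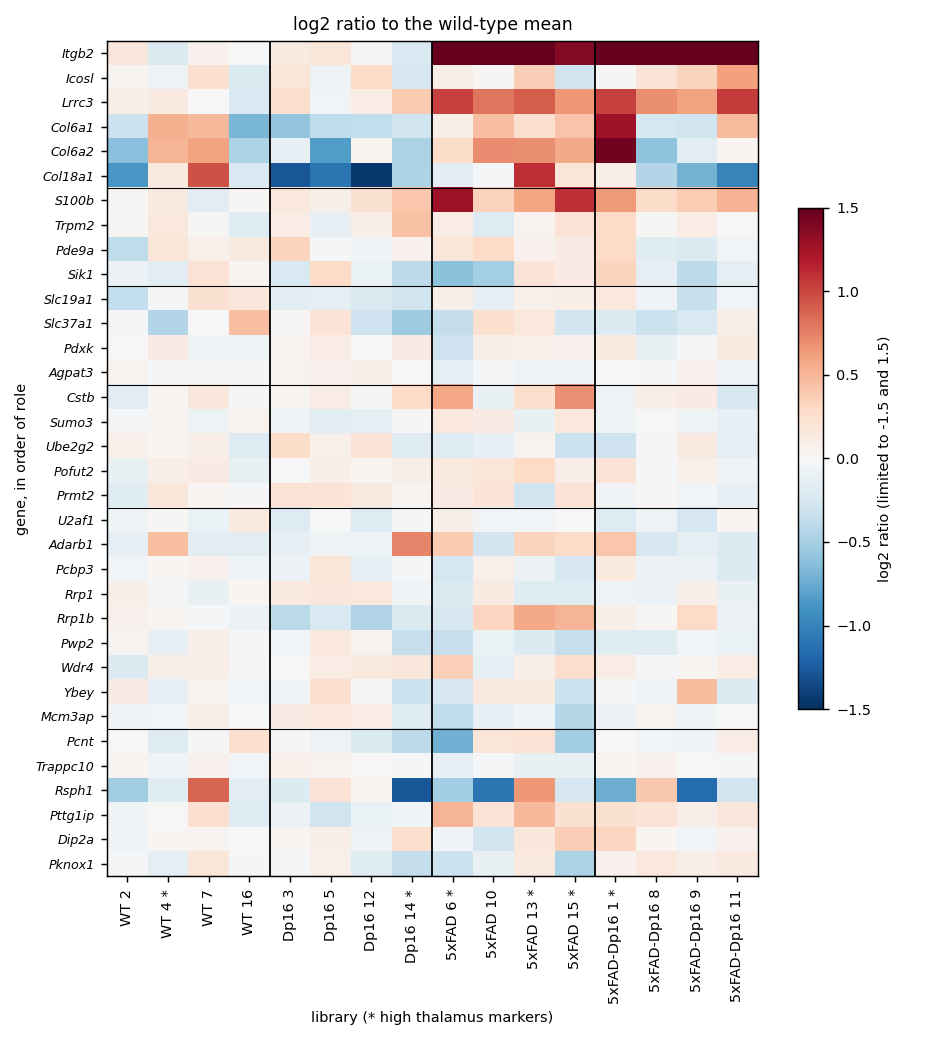
Log2 ratio of each tested ortholog (rows, in order of role) to the WT mean in each library (columns, stars for high thalamus markers), with colours limited to -1.5 and 1.5. The row of Itgb2 is red in all 8 libraries with transgenes, at 1.38 to 2.12, and that of Col18a1 varies within groups.

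**Figure D5:**
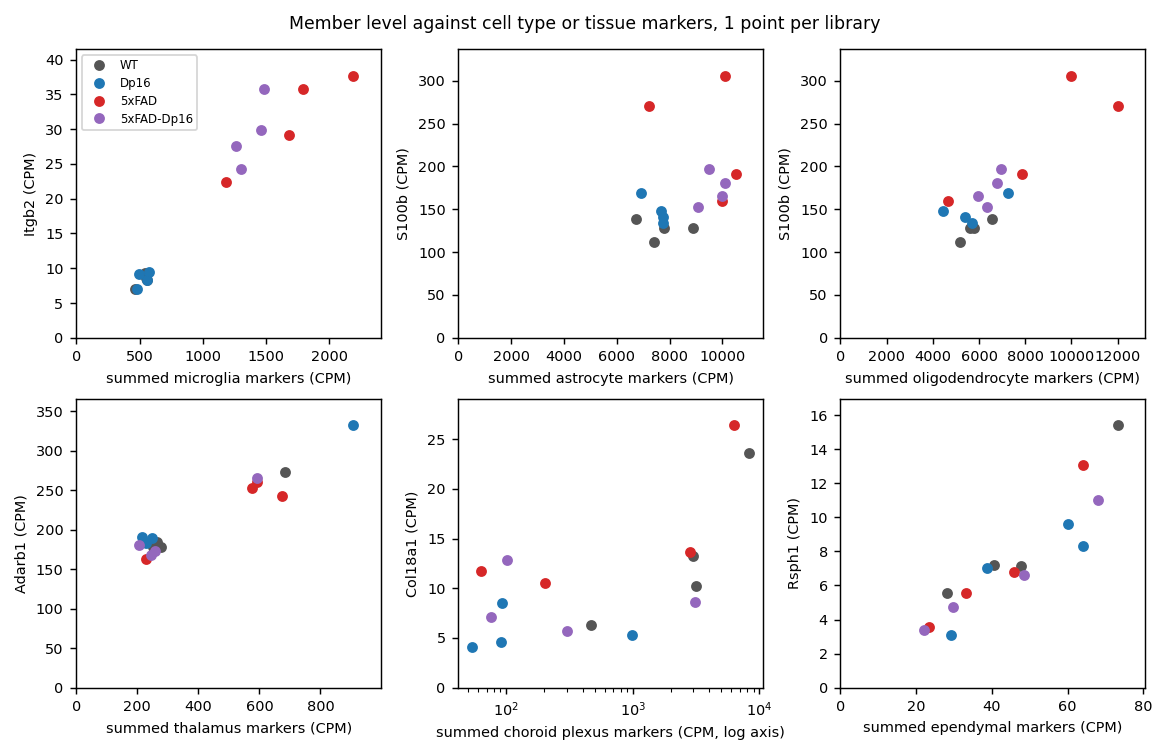
Level of an ortholog (y axis, CPM) against the summed level of a marker list (x axis, CPM, on a log axis for choroid plexus) with 1 point per library, for pairs chosen after the values were seen. Libraries of high microglia sums (1180 to 2190 CPM) hold Itgb2 at 22.4 to 37.7 CPM, and the 6 of high thalamus sums hold Adarb1 at 243 to 332 CPM.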

How the data were processed

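Poly(A)-selected, strand-specific libraries were made with a Tecan/Nugen Universal Plus mRNA kit and sequenced as 150-base read pairs, per the labels' protocols. The deposited table holds raw counts per gene, with deposited RPKM values beside them. Tools listed in the submitters' processing notes are HISAT2 2.1.0 and HTSeq 0.6.1, beside SAMtools 1.5, FastQC 0.11.5 and bcl2fastq, with GRCm38 as the build and no role given for each; the treatment of strand and of reads with several matches is not given in the sources used here. Deposited RPKM were used to compare levels between genes and, as log2(RPKM + 0.1), in limma 3.58.1.

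Counts were tested with edgeR 4.0.16 in R 4.3.3 (quasi-likelihood, robust, TMM scaling, filterByExpr with a minimum count of 10) in 1 fit of 16 libraries with group and sex. P-values were adjusted by Benjamini-Hochberg over 17132 genes and called below 0.05. SE is the change divided by the root of F, and intervals are 95%. CPM are TMM-scaled. DESeq2 1.42.0, other filters and scalings, no sex term, RPKM with limma, the compared groups alone and leaving out each library were the alternatives.

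The orthologs, role, pathway and marker lists were chosen with earlier results of these data known. Values in every library are given for orthologs called in a comparison and the 2 per role with the highest RPKM, the rest by range, with the largest rise and fall per comparison named; of other lists at most 3 called genes are named, by smallest p. The split by thalamus markers, at the widest gap, was added after seeing the data, as were the genes whose uncalled changes were followed through the alternatives. No 2 libraries held identical counts.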

Additional observations from a re-analysis of the deposited data

Results flagged for a closer look

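Of 136 sets of 4 libraries (34 orthologs in 4 groups), 14 had 1 library far from the other 3 by Dixon's criterion at 5%. About 6.8 would be so by chance if the sets were independent. The orthologs share the same libraries, so the sets are not independent and the 14 cannot be weighed against 6.8. Adarb1 stood apart in 3 groups: WT 4 at 273 CPM (others 178 to 184), Dp16 14 at 332 (183 to 191) and 5xFAD-Dp16 1 at 266 (168 to 180), all libraries of high thalamus markers. Rrp1 stood apart in 3 groups as well: Dp16 14 at 309 CPM (354 to 361), 5xFAD 10 at 352 (277 to 284) and 5xFAD-Dp16 9 at 340 (297 to 303). In Dp16 14, Mcm3ap was low at 44.9 CPM (55.1 to 57). In 5xFAD 10, the 5xFAD library without high thalamus markers, Slc19a1 was low at 12.8 CPM (15.1 to 15.3) and Trappc10 high at 104 (97.5 to 98.3). Pdxk was low in 5xFAD 6 at 140 CPM (181 to 186), and Sumo3 low in 5xFAD 13 at 85.6 (101 to 103). Agpat3 was high in WT 2 at 294 CPM (279 to 281), Rsph1 high in WT 7 at 15.4 (5.55 to 7.19), and Pttg1ip low in Dp16 5 at 41.7 (48.1 to 49).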

How the results depend on the processing

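Itgb2 and Lrrc3 were called higher in both transgene comparisons under every alternative run; the highest adjusted p of Lrrc3 was 0.0482. Without a filter on low counts, the number of orthologs called was 1 in Dp16 against WT (Col18a1), 2 in 5xFAD-Dp16 against 5xFAD (Col18a1, S100b), 1 for the averaged duplication (Col18a1), 5 in 5xFAD-Dp16 against Dp16 and 8 for the averaged transgenes (Col6a1, Col6a2 and Col18a1, higher, added in each), and 1 for the interaction (S100b); DESeq2 gave 1 for the averaged duplication. In 5xFAD against WT, 2 were called (Itgb2, Lrrc3) with only those groups fitted and 2 without the 6 libraries of high thalamus markers. Leaving out each library in turn gave 3 to 7 calls in 5xFAD against WT, 0 to 2 in 5xFAD-Dp16 against 5xFAD and 4 to 7 for the averaged transgenes. The highest values of the first pair came without 5xFAD 10: 7 calls in 5xFAD against WT (5 higher and 2 lower, Mcm3ap and Pwp2; 3486 of all genes, against 1244 with all libraries) and 2 in 5xFAD-Dp16 against 5xFAD (Cstb and S100b, lower; 2045 against 52 of all genes). Calls over all genes for the interaction ran from 0 to 290. Signs turned for Adarb1 in Dp16 against WT without Dp16 14 (-0.143, in a range up to 0.338 over single libraries left out), Rsph1 in 5xFAD against WT without WT 7 (0.0164, in a range down to -0.666), and, without the 6 libraries, Adarb1 in 5xFAD against WT (-0.13) and Cstb in the interaction (0.12); the causes were not tested. No paired analysis was possible because the library numbers in the titles do not repeat between groups. Ftcd, Spatc1l and Hsf2bp were tested only without the filter, and were not called.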
